A study of Mus musculus with 6 samples.

Results

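The genes described here encode the main splicing regulators of the nucleus, the heterogeneous nuclear ribonucleoproteins (hnRNPs) and the serine/arginine-rich (SR) proteins. They were taken as every symbol in the deposited count table that starts with Hnrnp or Srsf, which gave 29 of 23306 genes, 18 hnRNP genes and 11 SR genes. All 29 passed the filter on low counts and were tested, among 12449 tested genes. The libraries hold RNA bound to tagged ribosomes, pulled down from the frontal cortex of male C57BL6 mice. Per the labels, the mice came from a cross of a Pvalb-Cre driver with RPL22HA/WT (RiboTag) animals, in which Cre switches on a haemagglutinin-tagged ribosomal protein Rpl22. The knockout group carried a conditional Fxr1 knockout driven by the same PV-Cre, and the control group was wild type for Fxr1. Deletion and tagging therefore both depend on the Pvalb promoter, and cells that do not use it are not targeted. Ages, and whether a library came from 1 animal or a pool, are not given in the labels, so p-values measure the spread between libraries, which may be technical. The 4 libraries used, of 6 in the series, are replicates 2 and 3 of the wild type and 1 and 3 of the knockout; values are given in that order.

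hnRNPs coat nascent transcripts and often block the use of nearby splice sites, while SR proteins bind exonic enhancers and recruit the splicing machinery to them. Many members of both families also shuttle to the cytoplasm and act in mRNA export, stability and translation. Many of their genes control their own level through alternatively spliced exons that lead to decay of the transcript. Neurons express most members, and the balance between the families sets the inclusion of many neuronal exons. FXR1, a relative of the fragile X protein FMRP, binds RNA and acts on mRNA stability and translation.

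Many of these genes have processed pseudogenes, copies of the mRNA inserted elsewhere in the genome, and a read from a stretch that a copy shares cannot be assigned to 1 locus. Each member's transcript with the longest coding sequence (GENCODE M21, mm10) was therefore split into all windows of 50 bases, and each window was searched in the annotated transcripts of genes elsewhere. In 14 of the 29 members no coding window was found elsewhere, and in 10 members at least 25% of them were. The share was highest for Hnrnpa3 (97.7% of coding windows), Hnrnpf (96.1%), Srsf3 (89.4%) and Hnrnpa1 (80.8%). The stretches below show how close the copies are for the 3 hnRNP genes of this group that had the largest shares of whole-transcript windows. Each pair gives 120 coding bases of the gene and of the annotated copy that holds most of its windows, in lower case, with a capital where the copy differs.
Hnrnpa1: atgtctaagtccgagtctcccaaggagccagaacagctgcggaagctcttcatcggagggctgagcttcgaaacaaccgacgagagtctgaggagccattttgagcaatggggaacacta
Gm10052: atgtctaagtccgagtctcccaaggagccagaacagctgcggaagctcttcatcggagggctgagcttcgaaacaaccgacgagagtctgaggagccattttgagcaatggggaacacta
Hnrnpa3: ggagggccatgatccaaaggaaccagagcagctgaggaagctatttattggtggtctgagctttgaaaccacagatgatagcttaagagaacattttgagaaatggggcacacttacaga
Gm5641: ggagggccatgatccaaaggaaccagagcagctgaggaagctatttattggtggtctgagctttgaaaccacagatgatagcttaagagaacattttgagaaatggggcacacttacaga
Hnrnpf: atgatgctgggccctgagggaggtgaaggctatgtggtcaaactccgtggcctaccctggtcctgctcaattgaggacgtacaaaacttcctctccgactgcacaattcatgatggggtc
Gm6430: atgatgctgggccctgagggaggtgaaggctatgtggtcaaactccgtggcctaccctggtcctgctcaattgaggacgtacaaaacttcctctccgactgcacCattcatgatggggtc

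The first pair has 0 mismatches over these 120 bases, counted from the start codon, the second has 0 over coding bases 69 to 188, and the third has 1 from the start codon. Hnrnpa1 lies on chromosome 15 (mm10, 103240432 to 103246692, plus strand) and its copy Gm10052, a processed pseudogene, on chromosome 9 (123689233 to 123690192, minus strand). Aligned over 960 coding bases, this copy had 0 mismatches. Hnrnpa3 (chromosome 2, 75659261 to 75669407, plus strand) and the transcribed pseudogene Gm5641 (chromosome 3, 54481438 to 54482925, plus strand) were 98.5% identical over 1095 aligned coding bases. Hnrnpf (chromosome 6, 117900324 to 117925622, plus strand) and Gm6430 (chromosome 1, 97024681 to 97025928, plus strand) were 99.3% identical over 1245.

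The counting rule for reads with several matches is not given in the sources used here. Of the 18 genes elsewhere that share a window with Hnrnpa1, 17 of them pseudogenes, 2 are in the count table, Gm10052 and Gm5643. Together they held 0 and 0 counts in the wild type libraries, and 1 and 1 in those of the knockout.

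Total counts per library ranged from 9696126 to 10301280. The targeted gene Fxr1 was counted 954 and 1036 times in wild type libraries but 181 and 192 times in knockout libraries (edgeR log2 fold change −2.45, SE 0.10, adjusted p = 1.83e-15). CPM is a count scaled to the total of its library. The 8 markers of parvalbumin neurons summed to 9377 and 9453 CPM in wild type libraries, and this sum was lower in both knockout libraries, at 9002 and 9086. Its largest part was Gad1, at 4354 and 4295 CPM against 4245 and 4048 CPM. Gad1, Gad2, Pvalb and Erbb4 were each lower in both knockout libraries, and none passed (edgeR adjusted p = 0.998 for each). Of all tested genes, 15.2% were lower in knockout without overlap. The groups overlapped in Kcnc1, Kcnc2 and Tac1. Lhx6 was slightly higher in knockout on column totals (170.8 and 172.5 CPM against 174.5 and 173.8). On CPM scaled by TMM, edgeR's library scaling, its groups overlapped too (log2 fold change 0.02, SE 0.08). The 4 striatal neuron markers measured (Ppp1r1b, Penk, Adora2a and Drd2) summed to 23.9 and 24.2 CPM in wild type libraries and were higher in both knockout libraries, at 33.2 and 32.1. Each of these 4 had groups that did not overlap and an unadjusted p between 0.0278 and 0.0456, and none passed (edgeR adjusted p = 0.998 for each). Of all tested genes, 14.9% were higher in knockout without overlap, and 1.61% were higher at an unadjusted p under 0.05 by edgeR. Adora2a and Drd2 rested on 9 to 25 counts per library. The part of these marker differences in the knockout comparisons given here was not tested. All 5 excitatory neuron markers were detected too, at a sum of 767 to 848 CPM, as were the 5 astrocyte markers at 476 to 560 CPM, the 5 oligodendrocyte markers at 254 to 363 CPM and the 4 microglial markers at 11.7 to 12.6 CPM. The share of splicing factor RNA from cells other than parvalbumin neurons was not tested. In such bulk RNA fewer cells of a type and less RNA per cell cannot be told apart. Knockout replicate 1 held 0.711% of its counts in the ribosomal RNA precursor Rn45s, whereas the other 3 held 0.2827% to 0.3152%.

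The first question was how abundant each family is in the RNA pulled down with tagged ribosomes. The 18 hnRNP genes together took 0.307% of all counts and the 11 SR genes 0.0632%. Summed hnRNP levels were 2978 and 3207 CPM for wild type replicates 2 and 3, against 2988 and 3111 CPM for knockout replicates 1 and 3. For SR genes the sums, in the same order, were 609.5 and 640.02 CPM against 606 and 672 CPM. The genotypes overlapped in both sums. The difference of the means was −43.0 CPM for hnRNP genes (3092 ± 161 in wild type, 3050 ± 86.7 in knockout; SD, n = 2 each) and 13.9 CPM for SR genes (625 ± 21.6 and 639 ± 46.7), both smaller than the larger of their SDs. Its sign turned with the library left out, from −157 to 71.1 CPM for hnRNP and from −19.1 to 46.9 CPM for SR genes. hnRNP counts outnumbered SR counts 4.89 and 5.01 times in the wild type libraries and 4.93 and 4.63 times in the knockout libraries. These sums hold only symbols starting with Hnrnp or Srsf. The symbols Hnrnpdl and Hnrnpll are not in the count table, and hnRNP-type proteins with other symbols, such as Matr3 at a mean of 662 CPM, are not included.

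**Figure D1:**
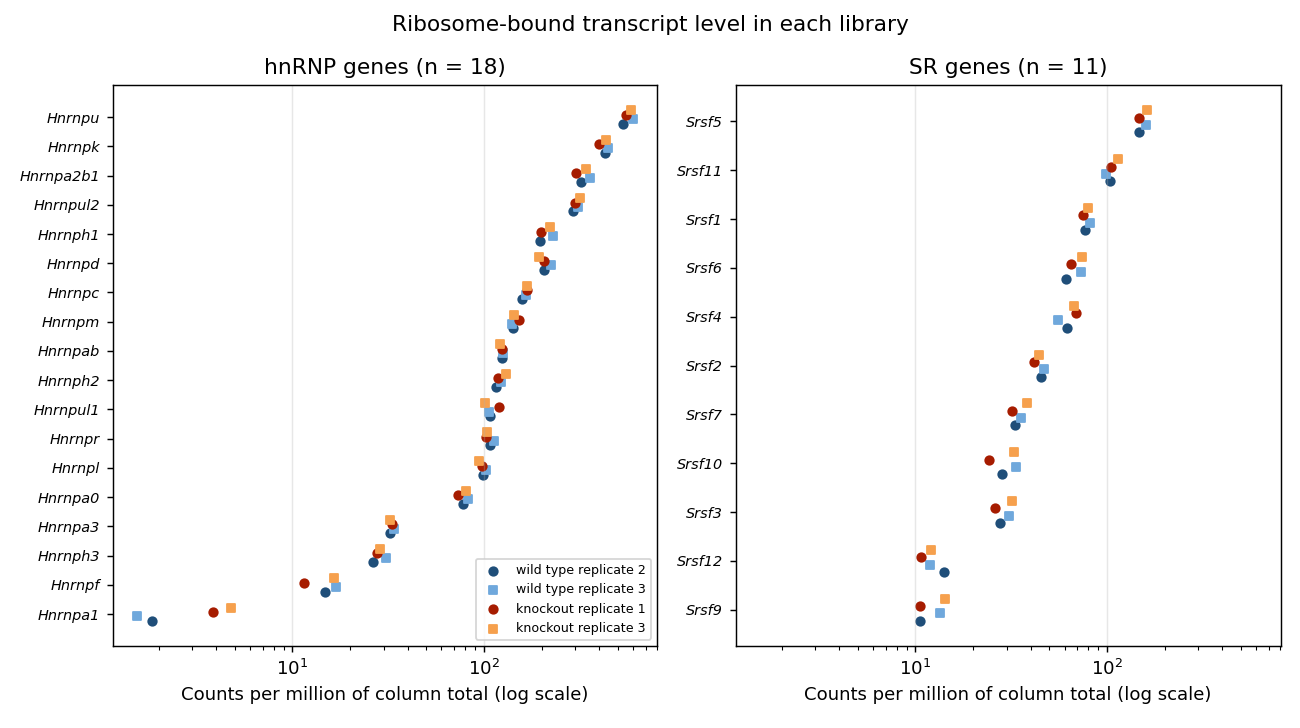
Level of each hnRNP gene (left) and SR gene (right) in the 4 libraries, in CPM of the column total on a log axis, each point 1 library. The libraries lie close together for most genes; Hnrnpa1, at the bottom left, has both knockout points (3.84 and 4.76 CPM) above both wild type points (1.86 and 1.55).

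Between genes, levels were compared per kilobase of annotated exon. On that scale the hnRNP genes had a median of 28.0 CPM per kilobase and the SR genes of 12.5, against 5.21 for all tested genes. Of the 18 hnRNP genes 15 stood above the median tested gene, and of the 11 SR genes 8. The hnRNP median lay at percentile 88.4 of the tested genes and the SR median at percentile 73.4, or at 86.9 and 80.1 per kilobase of coding sequence. Some ranks depended on the length used: Hnrnpr, a relative of the mRNA transport factor Syncrip, ranked 25 of 29 per kilobase of exon but 18 per kilobase of coding sequence, and Srsf3 moved from rank 28 to rank 17. For Hnrnpr a single transcript of 21452 bases spans most of the 22199 exonic bases, while the longest transcript of Srsf3 has 4010 of 7899.

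The most abundant member per kilobase was Hnrnpk, a KH-domain protein that binds C-rich RNA and also acts in transcription and translation, at 65.8 ± 3.18 CPM per kilobase (SD, n = 4). In CPM it measured 427 and 445 in wild type and 397 and 433 in knockout. Hnrnpa2b1, which carries mRNAs along dendrites and reads sorting signals in them, followed at 50.2 ± 3.72 CPM per kilobase, with 321 and 359 CPM in wild type libraries against 302 and 340.4 CPM in knockout ones. Hnrnpu, a scaffold protein that binds chromatin and RNA, was next at 48.9 ± 2.47 CPM per kilobase, and measured 533 and 597 CPM in wild type libraries against 554 and 583 CPM in knockout ones. The order of Hnrnpa2b1 and Hnrnpu was within their spread, whereas Hnrnpk stood above both by more than the SDs. Over coding length Hnrnpa2b1 (312 CPM per kilobase) and Hnrnpk (306) exchanged places. Hnrnpu, Hnrnpk and Hnrnpa2b1 made up 43.1% of the family's summed CPM.

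Among the SR genes, Srsf5 stood first at 38.6 ± 1.998 CPM per kilobase (SD, n = 4) and made up 24.4% of the family's CPM. It measured 147 and 159 CPM in wild type libraries against 147 and 162 CPM in knockout ones. Srsf11, an SR-like protein that takes part in the splicing of neuronal microexons, measured 104 and 98.9 CPM in wild type libraries against 105 and 115 CPM in knockout ones. Srsf1, the prototype of the family, measured 77.1 and 81.2 CPM in wild type libraries against 74.7 and 79.4 CPM in knockout ones. With Srsf5 these made up 53.5% of the SR sum. At the low end, Srsf9 held 10.6 and 13.4 CPM in wild type libraries against 10.5 and 14.2 CPM in knockout ones, and Srsf12, an SR-like repressor, 14.1 and 11.9 CPM against 10.7 and 12.1 CPM.

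The lowest member was Hnrnpa1, a splicing repressor that competes with SR proteins and is known as one of the most abundant nuclear proteins of dividing cells. Its 0.952 ± 0.492 CPM per kilobase (SD, n = 4) put it at percentile 15.7 of the tested genes. Hnrnpf, a binder of G-rich sequences, came at percentile 48.3, with 14.9 and 16.9 CPM in wild type libraries against 11.5 and 16.4 CPM in knockout ones. Both are among the members whose coding sequence is repeated in pseudogenes, as printed above. Over all members the rank correlation between the share of repeated coding windows and the level per kilobase was −0.268 (Spearman, 29 members of the same libraries). It was −0.22 over the longest transcript and −0.166 per kilobase of coding sequence. With the share of whole-transcript windows it ranged from −0.211 to −0.0935 over the same lengths. The 10 members with 25% or more repeated windows had a median of 5.49 CPM per kilobase, against 16.4 in the 14 members with none; per kilobase of coding sequence the medians were 57.7 and 68.0. The 10 ranged from 0.952 to 65.8 CPM per kilobase, and the 14 from 3.88 to 48.9. Hnrnpk, the first in rank, had 75.1% of its coding windows repeated. Whether such copies lowered any of these counts was not tested.

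**Figure D2:**
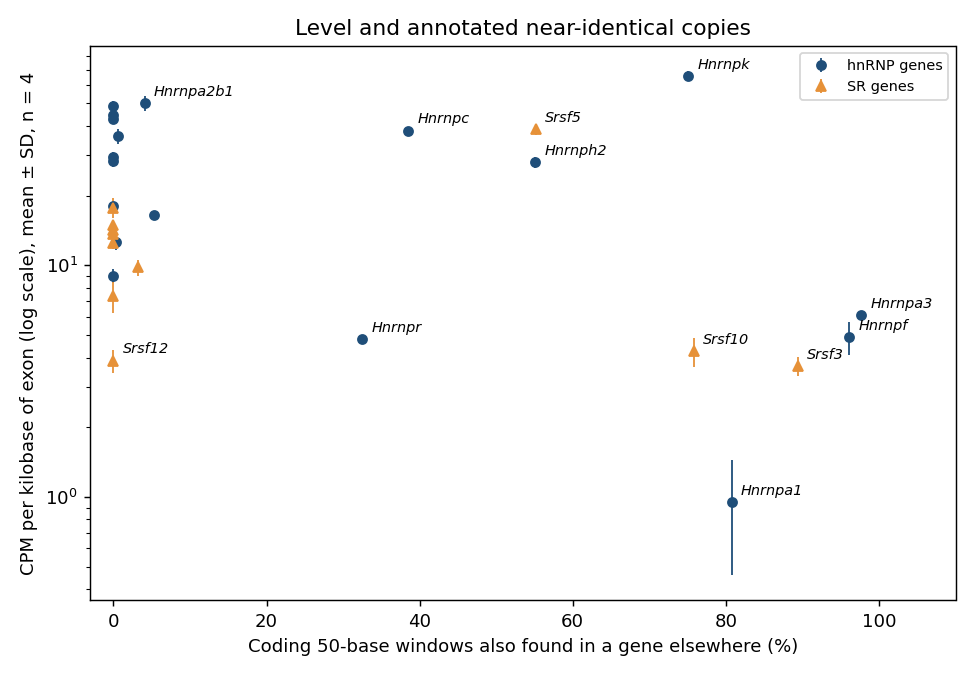
Level of each member against the share of its coding windows of 50 bases that also occur in an annotated gene elsewhere. The vertical axis is CPM per kilobase of exon on a log scale (mean ± SD over 4 libraries), circles are hnRNP genes and triangles SR genes; Hnrnpa1 is lowest at 0.952 with 80.8% of windows repeated, while Hnrnpk is highest at 65.8 with 75.1%.

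The second question was whether loss of Fxr1 was accompanied by a different level of any splicing regulator. None of the 18 hnRNP genes and none of the 11 SR genes passed edgeR's quasi-likelihood test (0 and 0; Benjamini-Hochberg adjustment over all genes), where 0.0321% of all tested genes, 4 of 12449, passed. DESeq2's Wald test and limma voom also passed 0 members. An unadjusted p under 0.05 was reached by 1 hnRNP gene and 1 SR gene, 2 of 29, against 3.23% of all tested genes. Both were higher in knockout, as were 1.61% of all tested genes at that p, and 0 members were lower, against 1.61%. Of the hnRNP genes 7 were higher and 11 lower in knockout (median log2 fold change −0.02), and of the SR genes 6 were higher and 5 lower (median 0.02). The log2 fold change was above 0 in 49.6% of all tested genes, whose median was −0.0015. Counts of higher and lower members moved with single libraries: without wild type replicate 3, 11 hnRNP genes were higher, and 2 SR genes were higher without wild type replicate 2 and also without knockout replicate 3.

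The intervals around the fold changes say how large a difference could have been missed. For 28 of the 29 members the 95% interval lay within 1.5-fold in either direction, against 72.1% of all tested genes. The 29th was Hnrnpa1. For 23 members, 16 hnRNP and 7 SR genes, it lay within 1.25-fold, against 40.6% of all tested genes. The tightest were those of the abundant genes: the fold of knockout over wild type was 0.952 for Hnrnpk (0.863 to 1.05) and 1.01 for Hnrnpu (0.909 to 1.11). The widest below 1.5-fold were those of low-count genes: Srsf9 at 1.03 (0.795 to 1.33), Hnrnpf at 0.879 (0.692 to 1.12) and Srsf12 at 0.875 (0.690 to 1.11).

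**Figure D3:**
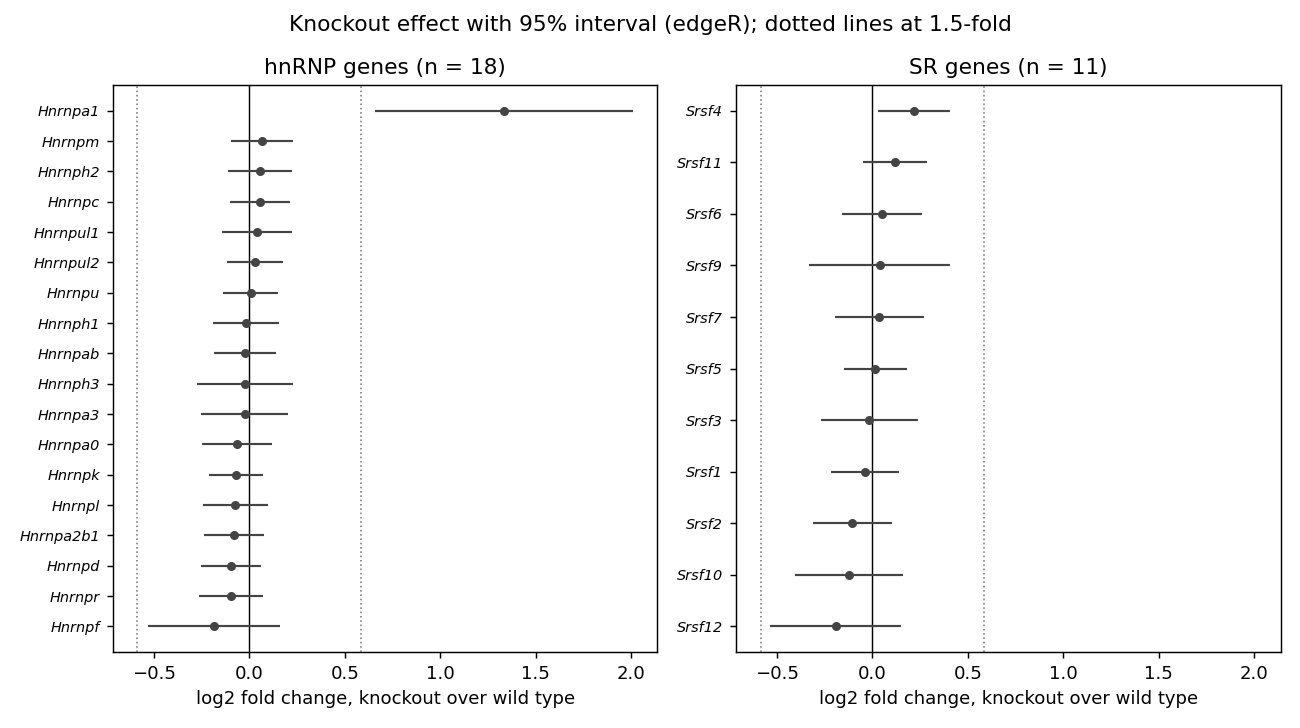
Log2 fold change of knockout over wild type for each hnRNP gene (left) and SR gene (right), as points with the 95% interval from edgeR; the solid line is no difference and the dotted lines are 1.5-fold. The interval of Hnrnpa1 (0.66 to 2.01) lies beyond 1.5-fold, all other intervals lie between the dotted lines, and that of Srsf4 (0.03 to 0.41) is the other one that does not reach 0.

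Hnrnpa1 had the smallest unadjusted p of the 29 members. Wild type replicates 2 and 3 held 18 and 16 counts, whereas knockout replicates 1 and 3 held 39 and 49. That is 1.86 and 1.55 CPM against 3.84 and 4.76 CPM, so that both knockout libraries lay above both wild type libraries. The fitted level was 2.52-fold higher in knockout, with a 95% interval of 1.58 to 4.02 (log2 fold change 1.33, SE 0.33). The unadjusted p was 0.000398 and the adjusted p 0.386 by edgeR, so it did not pass. The log2 fold change was between 1.18 and 1.47 when single libraries were left out, and the adjusted p was between 0.0865 and 0.99997 over all settings that tested the gene. These counts come only from the reads that the authors' counting assigned to the gene, and the other A/B genes were lower in knockout without passing: Hnrnpa2b1 had a log2 fold change of −0.08, Hnrnpa3 of −0.02, Hnrnpab of −0.02 and Hnrnpa0 of −0.06.

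Srsf4, an SR protein with a long serine/arginine domain, was the other member with an unadjusted p under 0.05. It measured 61.5 and 55.6 CPM in wild type libraries against 68.8 and 67.4 CPM in knockout ones. The groups did not overlap, at a log2 fold change of 0.22 (SE 0.09, edgeR adjusted p = 0.998). GENCODE places the noncoding gene Gm12992 on the opposite strand over 43.0% of the exonic bases of Srsf4 (chromosome 4, 131873617 to 131901706, plus strand). The kit keeps strand, but the strand setting of the counting is not given in the sources used here. Its part in the counts of Srsf4 was not tested. In all, 14 of the 29 members have exons overlapped by another annotated gene, 11 of them by a gene on the opposite strand, with the largest shares in Srsf4 and Hnrnpab (29.1%, by Phykpl).

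On CPM scaled by TMM, edgeR's library scaling, the groups did not overlap in 8 of the 29 members, 5 higher and 3 lower in knockout, against 30.1% of all tested genes (14.9% higher and 15.2% lower). Besides Hnrnpa1 and Srsf4, the higher ones were Hnrnpc, Hnrnpm and Srsf11. Hnrnpc, which binds uridine tracts and keeps cryptic exons out of mRNA, measured 159 and 165 CPM in wild type libraries against 169 and 168 CPM in knockout ones (log2 fold change 0.06, SE 0.08). Hnrnpm, a binder of GU-rich sequences, measured 140.9 and 140.6 CPM in wild type libraries against 151 and 143 CPM in knockout ones (0.07, SE 0.08). Srsf11 had a log2 fold change of 0.12 (SE 0.08). None of these differences passed.

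The lower ones were Hnrnpr, Srsf2 and Srsf12. Hnrnpr measured 108 and 112 CPM in wild type libraries against 102 and 104 CPM in knockout ones (log2 fold change −0.10, SE 0.08). Srsf2, which also acts in transcription elongation, measured 45.3 and 46.7 CPM in wild type libraries against 41.5 and 44.0 CPM in knockout ones (−0.10, SE 0.10). Srsf12 had a log2 fold change of −0.19 (SE 0.17); its groups were apart only on TMM-scaled values, since on column totals wild type replicate 3 (11.94 CPM) lay below knockout replicate 3 (12.05 CPM). These values, too, did not pass (adjusted p = 0.998 by edgeR for each).

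Other members at the ends of their family overlapped between genotypes. Hnrnpd, known as AUF1, which binds AU-rich elements and regulates mRNA decay, measured 205 and 223 CPM in wild type libraries against 206 and 194 CPM in knockout ones (log2 fold change −0.10, SE 0.08). Hnrnph2, an X-linked binder of G-rich sequences, measured 116 and 123 CPM against 118 and 131 CPM (0.06, SE 0.08). Srsf10, which represses splicing when dephosphorylated, measured 28.5 and 33.7 CPM in wild type libraries against 24.3 and 32.9 CPM in knockout ones (−0.12, SE 0.14). Srsf6 measured 60.8 and 73.0 CPM against 64.6 and 74.2 CPM (0.05, SE 0.10), and Srsf7, an adaptor of mRNA export, 33.1 and 35.5 CPM against 32.1 and 38.4 CPM (0.04, SE 0.11). In the last 3 genes the difference between the libraries of a genotype exceeded that between the genotypes. The remaining members, Hnrnpa0, Hnrnpa3, Hnrnpab, Hnrnph1, Hnrnph3, Hnrnpl, Hnrnpul1, Hnrnpul2 and Srsf3, had log2 fold changes from −0.07 to 0.04.

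Libraries of 1 genotype differed from each other in a shared direction across most members in wild type, and across most SR genes in knockout. Wild type replicate 3 stood above wild type replicate 2 in 25 of 29 members (86.2%), against 50.1% of all tested genes. Knockout replicate 3 stood above knockout replicate 1 in 20 of 29 (69.0%), against 50.3%. These were 10 of 11 SR genes but only 10 of 18 hnRNP genes (55.6%), near the share of all tested genes. Without Hnrnpa1, the median member of the hnRNP family deviated from its own mean by −0.02 and 0.07 (log2 CPM) in the wild type libraries, and by −0.03 and 0.02 in those of the knockout. The median SR gene deviated by −0.06 and 0.06 in wild type and by −0.10 and 0.12 in knockout. The summed markers of other interneurons had the same order, at 82.7 and 103 CPM in wild type libraries against 72.7 and 111 CPM in knockout ones. Most of that came from Npy (19.3 and 32.2 CPM, then 14.8 and 39.3), and Vip ran the other way in wild type (1.55 and 0.777 CPM). Summed excitatory (848 and 767 CPM), oligodendrocyte (281 and 254) and astrocyte markers (503 and 476) were lower in wild type replicate 3 than in replicate 2. Between knockout replicates 1 and 3 they were higher in replicate 3, at 804 and 847, 262 and 363, and 483 and 559.6 CPM. The part of these markers in the order of the splicing genes was not tested.

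**Figure D4:**
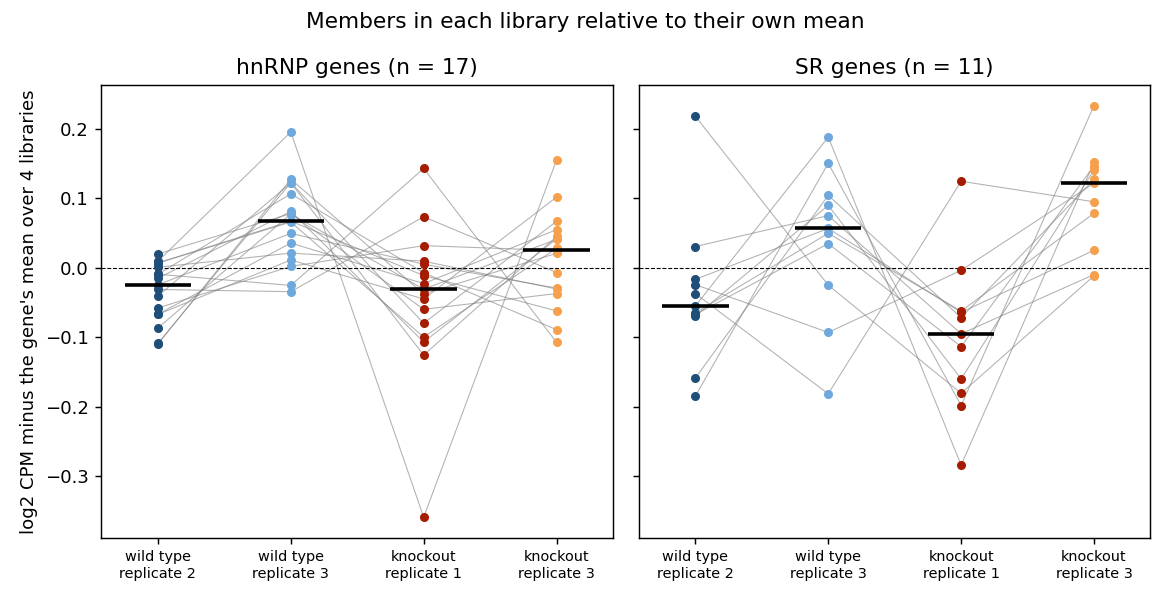
Log2 CPM of each member minus its mean over the 4 libraries, for 17 hnRNP genes (left, without Hnrnpa1) and 11 SR genes (right); each point is a gene, grey lines join the values of a gene and black bars are medians. Medians of the SR genes are −0.06 and 0.06 for the wild type libraries, −0.10 and 0.12 for those of the knockout, so libraries of the same genotype lie on either side of 0.

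The third question was whether the wider splicing machinery differed. Of 66 further splicing genes tested, 0 passed by edgeR, and 6 had an unadjusted p under 0.05, 2 higher and 4 lower, a share of 9.09% against 3.23% of all tested genes. Their median log2 fold change was −0.03. Among 16 hnRNP-type proteins with other symbols, 6 were higher and 10 lower in knockout (median −0.02). Rbmx, also called hnRNP G, measured 68.6 and 73.5 CPM in wild type libraries against 58.3 and 74.2 CPM in knockout ones, which overlapped (log2 fold change −0.10, SE 0.10).

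Among 13 genes of the U2 particle and branch point factors, 5 were higher and 8 lower (median −0.03). Sf3b1, which holds the branch point in the U2 particle, measured 299 and 288 CPM in wild type libraries against 235 and 260.2 CPM in knockout ones (log2 fold change −0.25, SE 0.07, edgeR adjusted p = 0.935), without overlap. U2surp, a U2-associated SR-related protein, measured 161 and 163 CPM against 143 and 146 CPM (−0.16, SE 0.08). Neither passed.

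Of 17 SR partners and kinases 8 were higher and 9 lower (median −0.00061). Tra2a, an SR-like activator, measured 29.1 and 26.8 CPM in wild type libraries against 31.1 and 36.6 CPM in knockout ones (log2 fold change 0.28, SE 0.12). Srrm3, a neuronal activator of microexons, measured 82.6 and 76.1 CPM in wild type libraries against 90.2 and 83.4 CPM in knockout ones (0.13, SE 0.09). Of 12 proteins of the U1 and U5 particles 6 were higher and 6 lower (median −0.01). Among them Snrnp70, which recognises the 5' splice site with U1, measured 57.5 and 52.9 CPM against 68.7 and 62.5 CPM (0.25, SE 0.10). Its U1 partner Snrpc measured 10.4 and 11.1 CPM against 5.90 and 9.04 CPM (−0.52, SE 0.20). Each had groups that did not overlap and an adjusted p of 0.998 by edgeR. Of 8 genes of the Sm ring, the protein core of the snRNPs, 1 was higher and 7 lower (median −0.11). Those with the smallest p, Snrpg (12 and 12 counts in wild type, 9 and 3 in knockout) and Snrpn (19 and 12, 9 and 12), rested on few counts and did not pass.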

How the data were processed

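What the authors deposited is a table of raw counts, 1 whole number per gene and library, without normalization. The submitters' processing notes name STAR and mm10. Not given in the sources used here: counting tool, annotation, strand setting and the handling of reads with several matches. The kit keeps strand, per the labels' protocols. A column was used where its name matched 1 sample title and no other column. This left out 2 columns, headed alike by the title of wild type replicate 1, so each genotype has 2 libraries. Replicate numbers follow accession order.

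The test was edgeR 4.0.16 under R 4.3.3, with TMM scaling, filterByExpr, a robust quasi-likelihood fit, Benjamini-Hochberg adjustment over all tested genes and a threshold of 0.05. The script was tested on simulated data. Over the 29 members the median standard error was 0.09 (log2), and over all tested genes 0.13. With 2 libraries per genotype, exact permutation gives no p below 0.333. CPM use column totals. Whether groups overlap was read on TMM-scaled CPM. Standard errors were derived from edgeR's output, as the absolute log2 fold change over the square root of its F statistic. Intervals of 95% come from these with a t quantile. Alternatives were DESeq2 1.42.0, limma 3.58.1, other scalings and filters, and each library left out. Lengths and positions are from GENCODE M21. Window searches covered exact sense matches in annotated transcripts.

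The members and lists were chosen with earlier results of these data known. Named with CPM or counts in each library were, in each family, the 4 members with the smallest p in each direction, the 3 of highest and the 2 of lowest CPM, and in each other list the 2 genes with the smallest p. A gene of those lists, and a stretch of sequence, are not reported here.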

Additional observations from a re-analysis of the deposited data

How the results depend on the processing

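No paired analysis was possible because replicate numbers only follow accession order. No hnRNP or SR gene passed under any of the alternatives run (0 members). While all libraries were kept, 0 of 231 values of single members turned sign. With 1 library left out 26 of 116 did, and 12 of the 29 members kept their direction whichever it was. Hnrnpa1 was not tested when at least 5 CPM in 3 libraries were asked for. Over all tested genes the 4 calls became 1 with library totals instead of TMM. They became 2 with DESeq2's Wald test, 13 without a filter on low counts, and 9 to 48 with single libraries left out. Among the other splicing genes 0 to 1 passed with single libraries left out, the 1 without knockout replicate 3. Where this left 1 library in a genotype, its spread was taken from the other. Median levels per kilobase became 33.6 (hnRNP) and 14.6 (SR) over the longest transcript and 88.1 and 59.2 over coding length. With single libraries left out, log2 fold changes that turned sign ranged from −0.077 to 0.10 for Hnrnpu, −0.14 to 0.11 for Hnrnph3, −0.13 to 0.11 for Hnrnph1, −0.054 to 0.013 for Hnrnpab, −0.024 to 0.094 for Hnrnpul2, −0.066 to 0.023 for Hnrnpa3, −0.17 to 0.013 for Hnrnpa2b1, −0.45 to 0.036 for Hnrnpf, −0.10 to 0.17 for Hnrnpul1. The others ranged from −0.0037 to 0.12 for Hnrnph2, −0.080 to 0.0082 for Srsf1, −0.045 to 0.085 for Srsf5, −0.16 to 0.11 for Srsf3, −0.085 to 0.15 for Srsf7, −0.079 to 0.20 for Srsf6, −0.34 to 0.066 for Srsf10, −0.18 to 0.23 for Srsf9, −0.27 to 0.049 for Rbmx. The cause was not tested for these genes or counts. Low counts, as for Hnrnpa1, leave wide intervals.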

Other observations

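The promoters of the members share features that the choice by name did not use. RefSeq windows (GRCm38.p6) from 250 bases before to 50 after the start were found for 28 of the 29 genes, 40 windows in all, since some genes have several starts. Their median GC content was 67.8%, against 52.7% over 32851 windows of all genes, and the median window held 29.5 CpG dinucleotides, against 7. The GC box letters GGGCGG (either strand) occurred in 33 of 40 windows (82.5%), against 35.7% of all windows. CCAAT (either strand) occurred in 17 of 26 hnRNP windows (65.4%) and in 4 of 14 SR windows (28.6%), against 37.4% of all, and TATAAA (either strand) in 4 of 40, against 13.6%. The lowest GC content among genes with 1 window was that of Hnrnpa1, at 48.3%. These are matches of letters in overlapping windows of the same genes, described without a test. The 32851 windows cover 27025 genes, more than the 12449 tested here. No comparison with tested genes alone was made, so the features are not shown to be particular to splicing regulators.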
